A study of Epimedium pubescens with 12 samples.

Results

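novel_36, novel_51 and novel_73 are 3 of 198 predicted miRNAs in a table of 220 miRNAs from leaves of the perennial herb Epimedium pubescens. The 3 miRNAs were chosen by their values: each was high under phosphorus deficiency at 90d, and they varied together between replicates. Their 90d levels and their co-variation are therefore given as a description, with no test. Plants stood in sand culture and were irrigated with nutrient solution holding 0 mmol/L phosphate (-P) or 1 mmol/L phosphate (+P), and whole leaves were taken at 30d and 90d. This gave 30d -P, 30d +P, 90d -P and 90d +P, with 3 libraries each, called replicates A, B and C. Plants were seedlings collected from a cultivation base. Per the study's methods, damage from -P was visible at 90d but not at 30d, and each treatment was given to replicate sets of seedlings. The study names 3 biological replicates per sample for its RNA sequencing and states that miRNAs came from those same samples. The sources do not tie the sets of seedlings to the small RNA libraries or say how many plants a library pools. The p-values therefore measure only the spread between these libraries, and the labels name no genotype. A table of miRNAs holds no cell type markers, so the leaf label could not be checked. In whole leaves, fewer cells of a type and less RNA per cell cannot be told apart.

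Plant miRNAs are short RNAs cut from hairpin precursors, and they guide the cleavage or block the translation of mRNAs that pair with them. When phosphate runs short in Arabidopsis, miR399 rises and lowers the mRNA of PHO2, an enzyme that marks phosphate transporters for breakdown, so that more phosphate is taken up and moved to the shoot. A predicted miRNA is one called from the hairpin fold and the read pattern of its locus, with a running number for a name, and no role is known for the 3 described here. Their sequences, positions and targets were not analysed here.

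All 3 predicted miRNAs passed the filter on low counts, as did 137 of the 220 in the table. Totals per library lay between 380316 and 1466897 counts. Levels are given in TPM, which in this table is the count as a share of the library's total, scaled to 1000000 with no term for length. 3 counts are worth 2.05 TPM at the greatest depth and 7.89 TPM at the lowest. Counts include PCR copies, so every interval covers counting error only. Across the 137 miRNAs, each library had a mean correlation between 0.823 and 0.945 with the other libraries of its group. In 10 of the 12 libraries this was above the mean correlation with the other groups. The exceptions were 30d -P replicate C (0.845 within its group and 0.854 with the other groups) and 30d +P replicate C (0.834 and 0.880), which hold the highest level of novel_36 in 30d -P and its lowest in 30d +P.

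novel_36 was the most abundant of the 3 in most -P libraries and the one that differed most between libraries. In 90d -P it had 3596 TPM in replicate A, 141 TPM in replicate B and 5240 TPM in replicate C, against 12.5, 25.6 and 2.20 TPM in replicates A, B and C of 90d +P. No 90d +P library reached the level of any 90d -P library, but replicate B was far below the other two of its own group. By level, novel_36 ranked 13 and 14 among all miRNAs of 90d -P replicates A and C, 44 in replicate B, and 140 in 90d +P replicate C. The mean was 2992 ± 2603 TPM under 90d -P, against 13.4 ± 11.7 TPM under 90d +P (SD, n = 3 each), a ratio of 223, and the fitted log2 fold change was 7.40 with a standard error (SE) of 1.57.

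novel_51 was the steadiest of the 3 under -P. It had 849 TPM in 90d -P replicate A, 119.95 TPM in replicate B and 1232 TPM in replicate C, against 10.8, 39.7 and 12.1 TPM in replicates A, B and C of 90d +P. Again the groups did not overlap, with replicate B the lowest of its group. The mean was 734 ± 565 TPM under 90d -P, against 20.9 ± 16.3 TPM under 90d +P (SD, n = 3 each), a ratio of 35.2, and the fitted log2 fold change was 4.75 (SE 1.24).

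novel_73 was the least abundant. It had 312 TPM in 90d -P replicate A, 12.1 TPM in replicate B and 299 TPM in replicate C, which were 451, 16 and 306 counts, against 0 counts in each of the 3 libraries of 90d +P. The mean in 90d -P was 208 ± 169.6 TPM (SD, n = 3). A count of 0 among the 3319208 counts of 90d +P allows up to 0.904 TPM, taking 3 counts over the group. The pooled level of novel_73 in 90d -P, 204 TPM, was at least 226-fold above that. This bound rests on replicates A and C, since replicate B had 12.1 TPM, and it leaves out the spread between libraries. Of the 137 miRNAs tested, 22 (16.1%) had all 3 libraries of 90d -P above all 3 of 90d +P, and these 22 included novel_36, novel_51 and novel_73. Because this contrast chose them, nothing is read from that count, nor from the 3 of 137 miRNAs (2.19%) with an adjusted p under 0.05 at 90d.

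**Figure D1:**
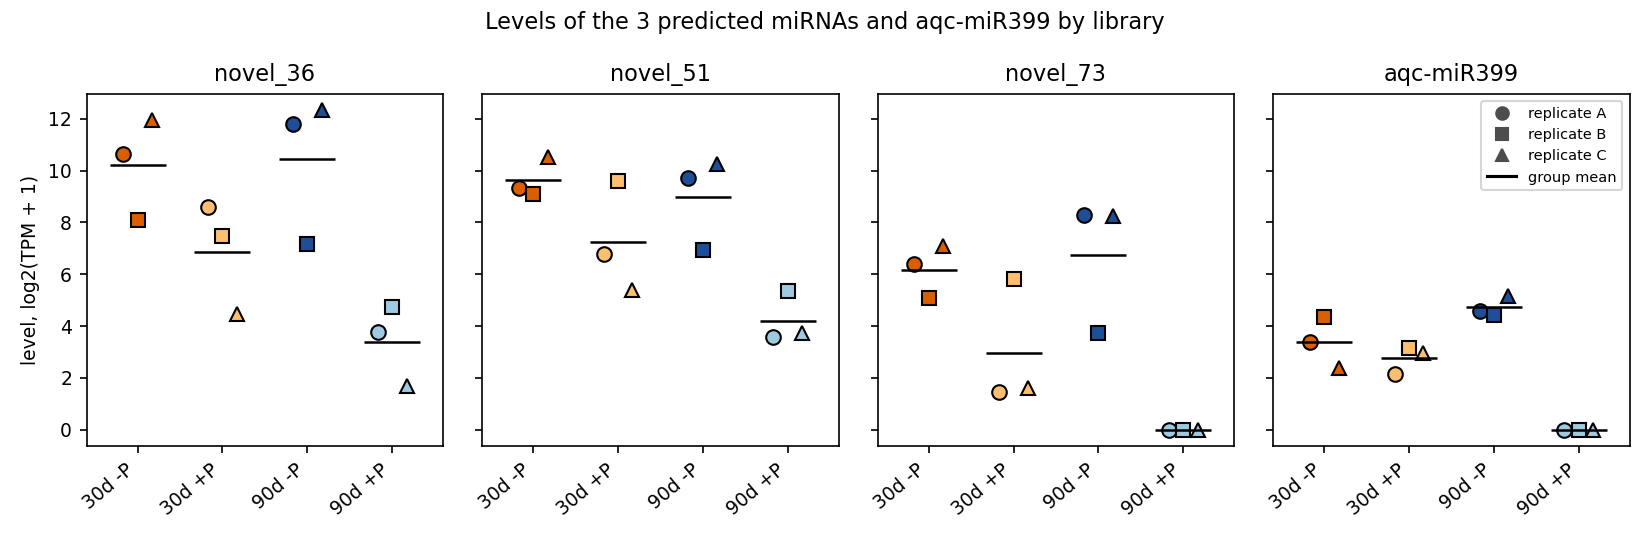
Level of novel_36, novel_51, novel_73 and aqc-miR399 as log2(TPM + 1) on the y axis, by group on the x axis. Points are the 12 libraries, with a shape for each replicate letter, and bars are group means of the log2 values: the 90d -P points lie above the 90d +P points for all 4 miRNAs, while those of 30d -P and 30d +P overlap.

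The contrast of -P with +P at 30d, which asks how leaf miRNAs differed early in phosphorus deficiency, did not choose the 3 miRNAs and was tested. It is not fully independent of the choice, since the co-variation was also seen in the 30d libraries, and for the same reason the 3 miRNAs are not separate evidence of its direction. All 3 had higher means in 30d -P, none passed the test after adjustment, and the libraries of both groups overlapped for each. novel_36 had 1579 TPM in 30d -P replicate A, 268.9 TPM in replicate B and 3960 TPM in replicate C, against 388, 176 and 21.1 TPM in replicates A, B and C of 30d +P. Replicates A and C of 30d -P were above every 30d +P library, whereas replicate B was below 30d +P replicate A. Within each letter, A, B and C, novel_36 was higher in -P. The mean was 1936 ± 1871 TPM under 30d -P, against 195 ± 184 TPM under 30d +P (SD, n = 3 each), a ratio of 9.92.

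novel_51 had 638 TPM in 30d -P replicate A, 540 TPM in replicate B and 1456 TPM in replicate C, against 109.7, 765 and 40.9 TPM in replicates A, B and C of 30d +P. Only replicate C of 30d -P was above every 30d +P library, since 30d +P replicate B was higher than 30d -P replicates A and B. Its mean was 878 ± 503 TPM under 30d -P, against 305 ± 399.8 TPM under 30d +P (SD, n = 3 each). novel_73 had 82.5 TPM in 30d -P replicate A, 32.6 TPM in replicate B and 133.9 TPM in replicate C, against 1.74, 55.2 and 2.05 TPM in replicates A, B and C of 30d +P. Here too 30d +P replicate B stood above the other two 30d +P libraries and above 30d -P replicate B. It held 21 of the 25 counts of novel_73 in 30d +P and was the shallowest library. Within letters, novel_51 and novel_73 were higher in 30d -P for A and C and lower for B. novel_73 averaged 83.0 ± 50.6 TPM under 30d -P, against 19.7 ± 30.8 TPM under 30d +P (SD, n = 3 each).

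By the quasi-likelihood test of edgeR over all 12 libraries, the log2 fold change of 30d -P over 30d +P was 3.80 for novel_36 (SE 1.32, unadjusted p = 0.0124). It was 1.80 for novel_51 (SE 1.09, unadjusted p = 0.121 by edgeR) and 2.30 for novel_73 (SE 1.44, unadjusted p = 0.137 by edgeR). The adjusted p of each was 0.962 by edgeR with Benjamini-Hochberg adjustment over 137 miRNAs. No miRNA had an adjusted p under 0.05 by edgeR (0%), nor by DESeq2 or limma, and 5 had an unadjusted p under 0.05 by edgeR. The median log2 fold change of all 137 was -0.15, and novel_36 ranked 1, novel_73 ranked 6 and novel_51 ranked 10 among them from the highest. The study's rule for miRNAs, called the unadjusted rule, asks for a change of at least 1 on the log2 scale and a p under 0.05 before adjustment. It was met by 3 higher miRNAs (2.19%), of which novel_36 was 1. With the replicate letter as a block in the 6 libraries of 30d, novel_36 no longer met that rule (log2 fold change 2.9995, unadjusted p = 0.110 by edgeR). Without 30d +P replicate B, the log2 fold change was 3.59 for novel_51 (unadjusted p = 0.00955 by edgeR) and 5.37 for novel_73 (unadjusted p = 0.00718 by edgeR), each with an adjusted p of 0.389. In the same setting novel_36 had 3.28 (unadjusted p = 0.0733 by edgeR) and did not meet the rule, nor did it without 30d -P replicate C (2.42, unadjusted p = 0.0863 by edgeR) or without 30d +P replicate C (2.98, unadjusted p = 0.0691 by edgeR).

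Counted by libraries, 1 of 137 miRNAs (0.730%) had all 3 libraries of 30d -P above all 3 of 30d +P, and it was none of the 3 described here. When levels were scaled by TMM, 3 of 137 miRNAs did so, and novel_36 was 1 of them.

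**Figure D2:**
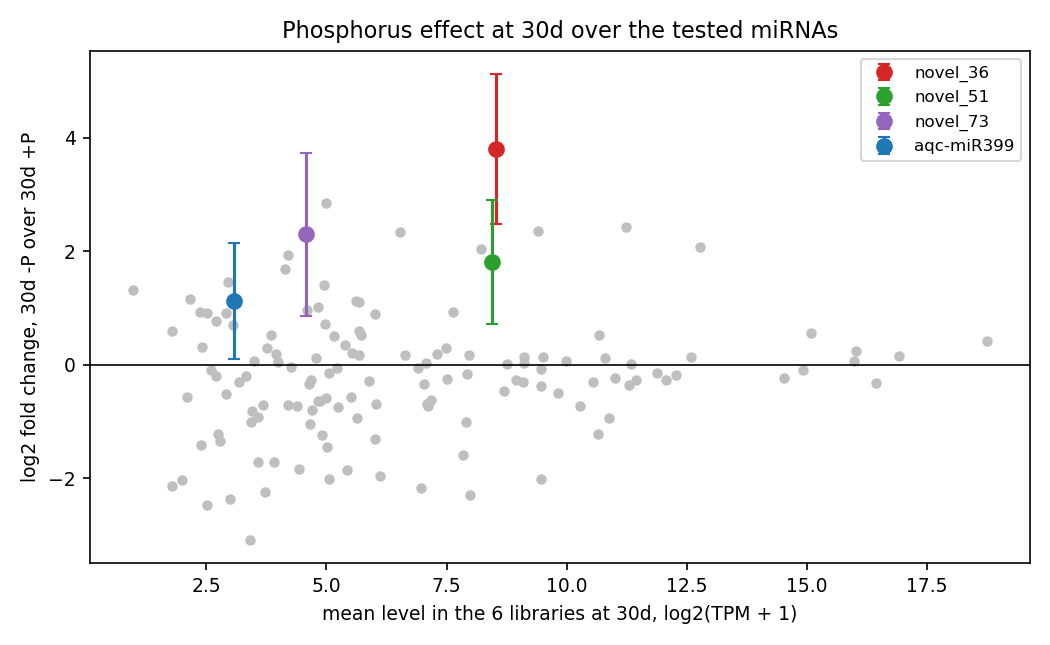
Fitted log2 fold change of 30d -P over 30d +P by edgeR (y axis) against the mean log2(TPM + 1) of the 6 libraries at 30d (x axis), a grey point for each of the 137 miRNAs tested and coloured points with bars of 1 SE for novel_36, novel_51, novel_73 and aqc-miR399. novel_36 (3.80) is the highest of all, and novel_73 (2.30) and novel_51 (1.80) lie among the 10 highest.

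By group mean, novel_36 and novel_73 had the order 90d -P, 30d -P, 30d +P, 90d +P, from high to low, and novel_51 had 30d -P above 90d -P with the same order below. Neighbouring groups in these orders overlapped, except 30d +P and 90d +P for novel_51 and novel_73. Under -P the fitted log2 fold change of 90d over 30d was 0.77 (SE 1.19) for novel_36, -0.19 (SE 1.06) for novel_51 and 1.498 (SE 1.37) for novel_73, and the libraries of both times overlapped for each. Under +P the means were lower at 90d. For novel_36 the log2 fold change of 90d +P over 30d +P was -2.82 (SE 1.28), with 90d +P replicate B at 25.6 TPM above 30d +P replicate C at 21.1 TPM. For novel_51 it was -3.14 (SE 1.16), and all 90d +P libraries were below all 30d +P libraries. novel_73, at 0 counts in 90d +P, was at least 11.4-fold lower there than in 30d +P. That bound rests on 30d +P replicate B, since the other 30d +P libraries held 4 counts among 2041227 (1.96 TPM), which is 2.17 times the 0.904 TPM that 0 counts in 90d +P allow. Of 137 miRNAs, 29 (21.2%) had all 90d +P libraries below all 30d +P libraries, 2 of the 3 among them. With TMM scaling it was 11 of 137, with 1 of the 3 among them. Because the 90d libraries were used to choose the 3 miRNAs, these changes with time were not tested.

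The low replicate B of 90d -P was shared by the 3 miRNAs but not by the library as a whole. Its total of 1317204 counts lay between those of replicate C (1022835) and replicate A (1444541), and its mean correlation with them across the 137 miRNAs was 0.907, against 0.929 for replicate A and 0.945 for replicate C. Together the 3 miRNAs held 0.476% of the counts of 90d -P replicate A, 0.0273% of replicate B and 0.677% of replicate C. Of 109 miRNAs with a mean of at least 10 TPM in 90d -P, 7 had a library at least 10-fold below both others on TPM + 1, and in 5 of the 7 it was replicate B. These were novel_36 (25.3-fold below), novel_73 (22.8-fold), novel_243 (45.3-fold), novel_27 (13.6-fold) and novel_306 (11.9-fold), and in novel_189 and novel_81 it was replicate A.

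novel_243 and novel_27 shared the low replicate B but not the contrast with 90d +P. novel_243 had 1618, 27.3 and 1282 TPM in replicates A, B and C of 90d -P, against 52.4, 1231 and 35.3 TPM in replicates A, B and C of 90d +P. novel_27 had 375, 26.6 and 442 TPM in replicates A, B and C of 90d -P, against 77.4, 2628 and 22.0 TPM in replicates A, B and C of 90d +P. The high library of 90d +P was replicate B for both, where novel_36 had 25.6 TPM and novel_73 had 0 counts.

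**Figure D3:**
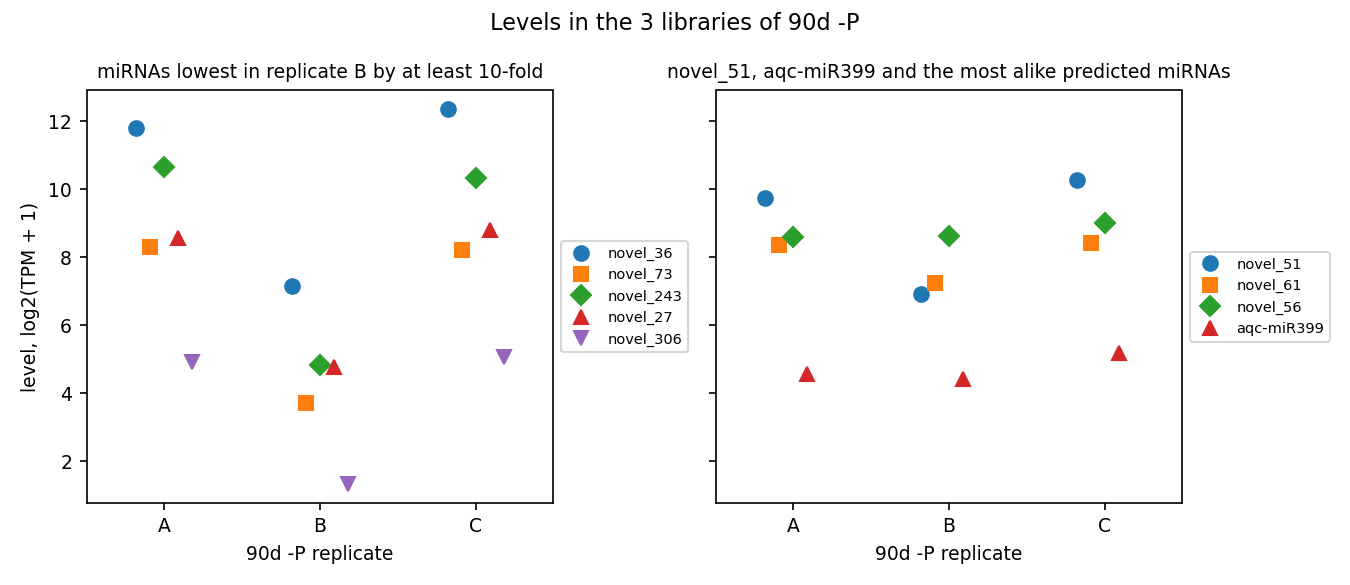
Level as log2(TPM + 1) in replicates A, B and C of 90d -P, a point for each library, for the 5 miRNAs lowest in replicate B by at least 10-fold (left) and for novel_51, novel_61, novel_56 and aqc-miR399 (right). Replicate B is 25.3-fold below for novel_36 and 22.8-fold below for novel_73 on TPM + 1, whereas aqc-miR399 had 20.5 TPM there and 22.8 TPM in replicate A.

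Across all 12 libraries, the levels of the 3 miRNAs moved together on the log2(TPM + 1) scale. Pearson's r was 0.922 for novel_36 with novel_51 (Spearman's rho 0.909), 0.907 for novel_36 with novel_73 (rho 0.873) and 0.953 for novel_51 with novel_73 (rho 0.951). The points share the group differences by which the miRNAs were chosen and each library's total. The 3 were also chosen for varying together, so nothing is read from how their r compares with other pairs. For each pair, r was also taken without the 2 libraries farthest from the median of its first-named miRNA. These were 90d -P replicate C and 90d +P replicate C for novel_36, and 90d +P replicates A and C for novel_51. This gave r of 0.888, 0.879 and 0.947 for these pairs in the same order. Between all 9316 pairs of the 137 miRNAs the median r was 0.04 and the 95th percentile was 0.692.

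Part of this lay between groups and part within them. On deviations from the group means, r was 0.751 for novel_36 with novel_51, 0.651 for novel_36 with novel_73 and 0.895 for novel_51 with novel_73. The 95th percentile of all pairs on such deviations was 0.676. These miRNAs were chosen for varying together between replicates, so nothing is read from setting their r beside it. Over the 9 libraries without 90d -P, r was 0.908, 0.859 and 0.964 for the pairs in that order, and over the 9 libraries without 90d +P it was 0.829, 0.829 and 0.927. Correlations with depth were negative: r with the log2 library total was -0.25 for novel_36, -0.41 for novel_51 and -0.24 for novel_73 over 12 libraries, and -0.40, -0.60 and -0.50 within groups. The part of depth in the co-variation was not tested.

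**Figure D4:**
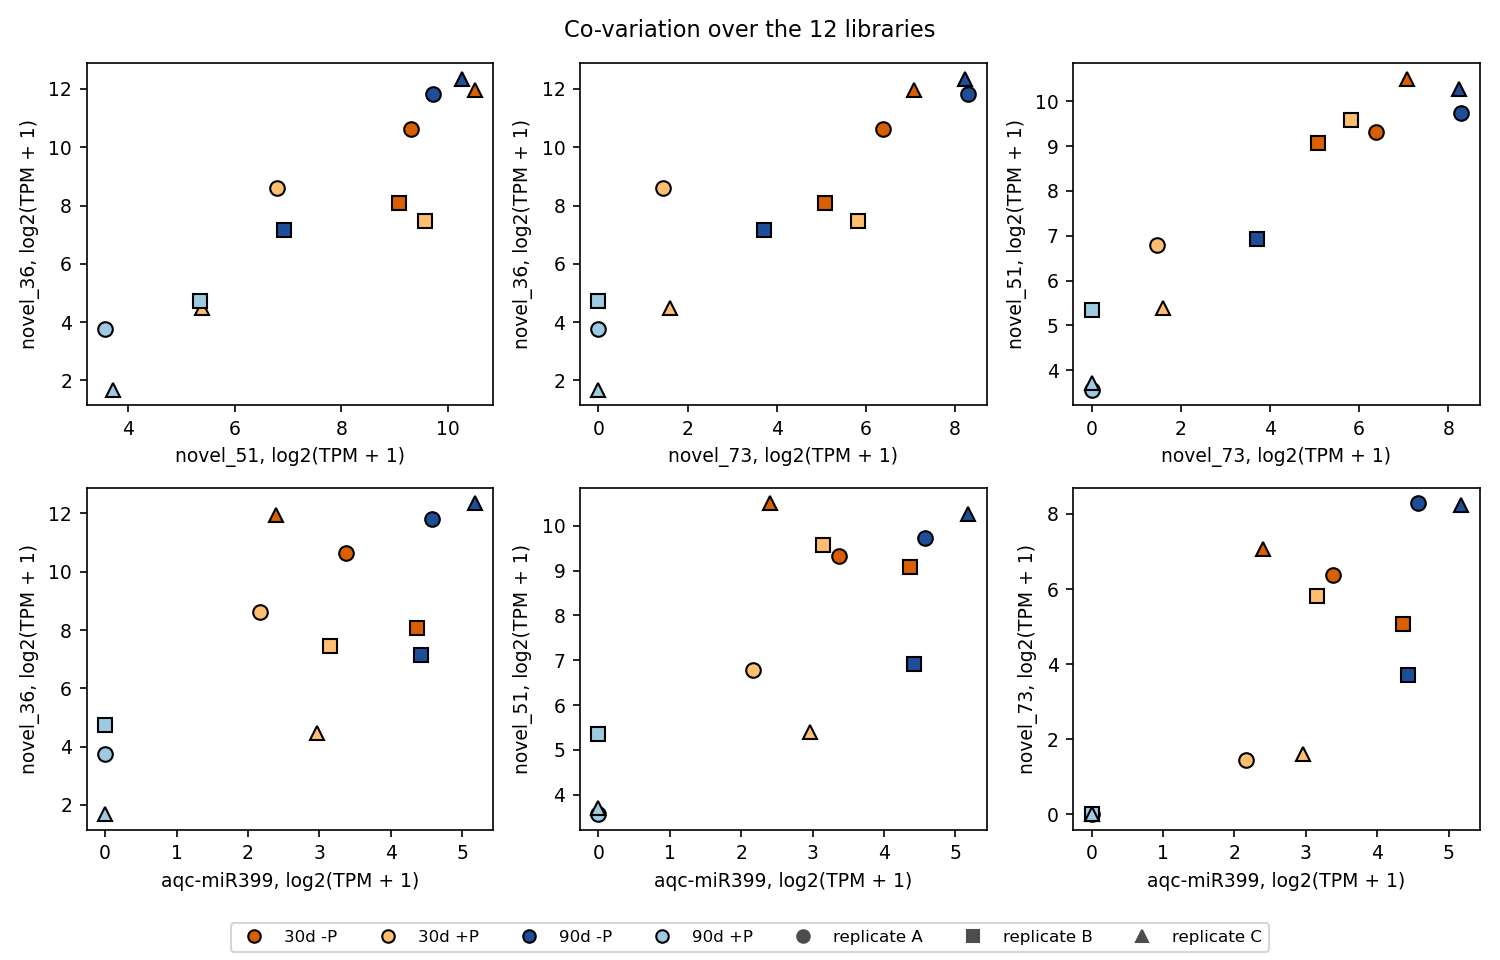
Pairs of novel_36, novel_51 and novel_73 (upper row) and each of them against aqc-miR399 (lower row), all as log2(TPM + 1), a point for each of the 12 libraries, coloured by group with a shape for each replicate letter. In the upper row the libraries spread along a rising line (r of 0.922, 0.907 and 0.953), while in the lower row the 90d +P libraries lie apart at 0 aqc-miR399 and the others scatter.

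Moving together did not mean a fixed ratio. For each novel_51 count there were 4.23 novel_36 counts in 90d -P replicate A (exact 95% interval 3.98 to 4.51), 1.18 in replicate B (0.947 to 1.46) and 4.25 in replicate C. Replicate B of 90d -P thus differed from the other two in the ratio and not only in the level. In 30d -P the ratio was 2.48 in replicate A, 0.498 in replicate B and 2.72 in replicate C, and in 30d +P it was 3.54, 0.230 and 0.517 in replicates A, B and C. In 90d +P it was 1.15, 0.646 and 0.182 in replicates A, B and C, from 13, 48 and 11 counts of novel_51. Over the 12 libraries the ratio spanned 23.4-fold. In both -P groups it was lowest in replicate B, while in 30d +P the intervals of replicate A (2.67 to 4.76) and replicate B (0.174 to 0.301) did not overlap.

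The ratio of novel_73 to novel_51 was highest in 90d -P replicate A. novel_73 gave 0.129, 0.0604 and 0.0920 counts for each novel_51 count in replicates A, B and C of 30d -P, against 0.0159, 0.0722 and 0.05 in replicates A, B and C of 30d +P, where it had between 1 and 21 counts. In 90d -P the ratio was 0.368, 0.101 and 0.243 in replicates A, B and C. Against novel_36, novel_73 gave 0.0868, 0.0860 and 0.0571 in replicates A, B and C of 90d -P, so these were close in replicates A and B although both levels differed more than 20-fold between those libraries.

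**Figure D5:**
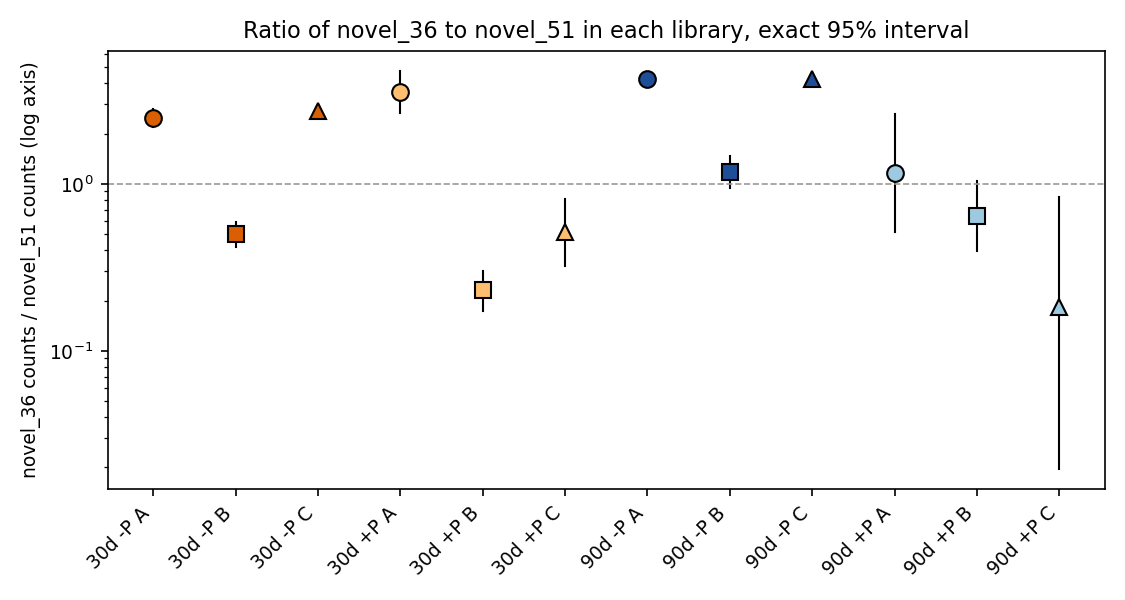
Counts of novel_36 for each count of novel_51 (y axis, log scale) in each of the 12 libraries (x axis), with exact 95% intervals for counting error and a dashed line at a ratio of 1. The ratio is above 4 in 90d -P replicates A and C, 1.18 in 90d -P replicate B and 0.182 in 90d +P replicate C.

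aqc-miR399 matches the family known for its rise under phosphate shortage (aqc stands for Aquilegia coerulea). Like novel_73 it had no counts in 90d +P, but it did not share the wide gap of replicate B in 90d -P. It had 22.8, 20.5 and 35.2 TPM in replicates A, B and C of 90d -P, which were 33, 27 and 36 counts, against 0 counts in each library of 90d +P. Replicate B was thus close to replicate A, unlike in novel_36, novel_51 and novel_73. aqc-miR399 was at least 28.1-fold higher in 90d -P, with an adjusted p of 0.0243 by edgeR with Benjamini-Hochberg adjustment. Its passing of the filter on low counts rested on 90d -P, whose libraries held its highest levels. The filter was thus not independent of this contrast. It did not pass the stricter filter, so that setting gave no value for it. Over 15 alternative settings the adjusted p of aqc-miR399 lay between 4.29e-05 and 0.363, and it was under 0.05 in 7 of them. Leaving out replicate A or C of 90d -P gave 0.0671 and 0.0653, leaving out any library of 90d +P gave 0.0880 to 0.144, and the replicate block gave 0.0568 (12 libraries) and 0.363 (6 libraries), all by edgeR. In 30d -P the level was 9.38, 19.6 and 4.27 TPM in replicates A, B and C, against 3.48, 7.89 and 6.82 TPM in replicates A, B and C of 30d +P (log2 fold change 1.13, SE 1.02, adjusted p = 0.986 by edgeR). In 30d -P aqc-miR399 had only 5, 15 and 3 counts in replicates A, B and C, and the exact 95% intervals of these levels overlapped. Its order among these replicates was thus within counting error, and nothing is read from setting it beside that of novel_36.

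Over the 12 libraries, r with aqc-miR399 was 0.731 for novel_36 (rho 0.655), 0.771 for novel_51 (rho 0.711) and 0.816 for novel_73 (rho 0.823). The values within groups were lower. On deviations from the group means r was -0.33 for novel_36, 0.07 for novel_51 and 0.13 for novel_73. aqc-miR399 had 0 counts in 90d +P and only 2 to 36 counts in each other library. Counting error can weaken these r, so they cannot show whether aqc-miR399 shared the smaller differences between replicates. Over the 9 libraries without 90d +P, r was 0.265, 0.294 and 0.522 for the 3 in that order. Over the 9 libraries without 90d -P, where the 90d +P libraries at 0 remain, it was 0.660, 0.784 and 0.778. Without the 2 libraries farthest from the median of novel_36, novel_51 or novel_73, r was 0.567, 0.558 and 0.710 in the same order. For novel_73 these were 90d +P replicates A and B, which tied with replicate C at 0 counts. Pooled over the groups, the SD of log2(TPM + 1) within groups was 2.18 for novel_36, 1.87 for novel_73, 1.53 for novel_51 and 0.591 for aqc-miR399. The median over the 137 miRNAs was 1.16. The values of novel_73 and aqc-miR399 are lowered by 90d +P, where their 0 counts add no spread. In the order novel_36, novel_73, novel_51 and aqc-miR399, the SD was 1.97, 1.02, 0.765 and 0.982 in 30d -P. It was 2.14, 2.47, 2.13 and 0.525 in 30d +P, and 2.86, 2.62, 1.80 and 0.398 in 90d -P.

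Outside the 3 themselves, the miRNA whose pattern over the 12 libraries was most like each of them was novel_61, with r of 0.798 for novel_36, 0.869 for novel_51 and 0.877 for novel_73. Next came aqc-miR399 (0.731) and novel_306 (0.722) for novel_36, novel_56 (0.836) and aqc-miR399 (0.771) for novel_51, and aqc-miR399 (0.816) and novel_56 (0.798) for novel_73. On deviations from the group means the order differed: novel_61 had r of 0.117 with novel_36, 0.531 with novel_51 and 0.412 with novel_73, while novel_306 had 0.895 with novel_36, above the 0.751 and 0.651 that novel_36 had with novel_51 and novel_73. The co-variation of novel_36 within groups was thus not particular to these 3. By level, novel_61 had 325, 151 and 339 TPM in replicates A, B and C of 90d -P, against 4.99, 13.2 and 24.2 TPM in replicates A, B and C of 90d +P. novel_56 had 384, 392 and 515 TPM in replicates A, B and C of 90d -P, against 8.32, 47.9 and 58.4 TPM in replicates A, B and C of 90d +P. Both had their 90d -P libraries above their 90d +P libraries, without the wide gap of replicate B.

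Of the families that respond to phosphate shortage in Arabidopsis, 8 miRNAs had a level in the table and 4 passed the filter. At 30d, 0 of these 4 passed an adjusted p of 0.05 by edgeR (adjusted p between 0.962 and 0.986), and 0 had an unadjusted p under 0.05. At 90d, 1 of 4 passed, aqc-miR399, and its call was lost in 8 of the 15 alternatives. Its passing of the filter rested on 90d -P, so its place among the 4 was not independent of this call. aqc-miR399 was not tested with the stricter filter, which it did not pass. Of all 137 miRNAs, 3 passed (2.19%). These 3 include aqc-miR399 itself and miRNAs chosen by their 90d levels, so nothing is read from setting 1 of 4 beside them. aqc-miR395b, of a family that acts in sulfate supply, had a log2 fold change of 1.12 at 90d, and aqc-miR398a and aqc-miR398b, of a family that acts on copper enzymes, had -2.75 and -1.55, with adjusted p between 0.488 and 0.662 by edgeR. None of these 3 was among the miRNAs most like novel_36, novel_51 or novel_73. None of the 8 was of the miR827, miR2111 or miR778 families.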

How the data were processed

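The NEBNext small RNA kit was used for library preparation, per the labels. The authors cleaned the reads of adapters, poor base calls and other RNA classes (such as rRNA and tRNA). Hairpins were predicted with mirdeep2 and miREvo. The submitters' processing notes name Bowtie and DESeq2. Not given in the sources used here: genome build, mismatch rule and miRBase release. A raw read count and a TPM value were deposited by the authors for each of 220 miRNAs in 12 libraries. The deposited TPM equals the count as a share of the table's library total, scaled to 1000000. Other values deposited by the authors, the group means of counts, were not used, and 0 columns belonged to other samples.

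Counts were tested with edgeR 4.0.16 in R 4.3.3 (glmQLFit and glmQLFTest, older quasi-likelihood method, TMM) in 1 model of 4 groups over 12 libraries, after filterByExpr with a minimum count of 10. Tests were two-sided with Benjamini-Hochberg adjustment over 137 miRNAs, which held 99.98% of counts. The SE was the absolute log2 fold change divided by the square root of F. The common dispersion was 0.748, and TMM factors lay between 0.688 and 1.85. Level and correlation scripts used Python 3.11.15 with scipy 1.17.1, a pseudocount of 1 TPM and Clopper-Pearson intervals. The fit was run on simulated counts. A required outcome was set only at a spread far below that of these data, so nothing is read from it. Alternatives were RLE and library-total scaling, no filter, DESeq2 1.42.0, limma 3.58.1, a stricter filter (10 counts in 6 libraries), the newer edgeR method, 6 libraries only, the replicate letter as a block, and each library left out in turn.

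Letters were taken to pair libraries at 30d, where same-letter deviations from the group means correlated at 0.431, 0.228 and 0.243 for A, B and C. At 90d these were 0.269, -0.24 and -0.15, and letters were not taken to pair libraries. Libraries of different letters correlated between -0.33 and 0.03 at 30d. At 90d they reached 0.445, for 90d -P replicate B with 90d +P replicate C, so values of this size also arose between different letters. The pairing at 30d was thus inferred from these same data. The labels do not say what a letter marks, and the study states a completely randomized design. The main fit did not use the letters, and comparisons within letters are a description only.

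The miRNAs and lists were chosen with earlier results of these data known. Besides the 3 miRNAs, the text names aqc-miR399 and the 3 miRNAs with the highest r with each. It also names the miRNAs with a 90d -P library at least 10-fold below both others. The last list is the families known to respond to phosphate in Arabidopsis. Of these, miR399, miR827, miR2111, miR778 and miR156 were listed as raised by phosphate shortage, and miR169, miR395 and miR398 as lowered.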

Additional observations from a re-analysis of the deposited data

How the results depend on the processing

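All 48 alternative log2 fold changes of novel_36, novel_51 and novel_73 at 30d (16 for each) kept their direction. They lay between 2.42 and 4.92 for novel_36 (adjusted p 0.396 to 0.994 by edgeR, DESeq2 or limma), 1.22 and 3.59 for novel_51 (0.389 to 0.994) and 1.78 and 5.37 for novel_73 (0.389 to 0.994). The unadjusted rule was met in 11, 2 and 2 of the 16 for these 3 in that order. The lowest value of each came without 30d -P replicate C. At 90d, where the choice of the miRNAs fixes the direction, the values lay between 6.89 and 8.06 for novel_36, 4.41 and 5.62 for novel_51, and 6.75 (limma) and 11.03 for novel_73, whose fitted values depend on the prior count. With library totals as the scale, the median over all miRNAs was -0.42 at 30d, against -0.15 with TMM, and -0.02 at 90d, against -0.44 with TMM.

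At 30d, 5 miRNAs met the unadjusted rule (3 higher, 2 lower). The count was 12 with no filter (8 higher, 4 lower), 10 with DESeq2 (4 higher, 6 lower), 10 with the newer edgeR method (3 higher, 7 lower), 9 with limma (2 higher, 7 lower), 2 with edgeR on 6 libraries and 3 with the replicate block on 6 libraries. Library totals gave 5 with 2 higher and 3 lower. Leaving out 1 library gave 2 to 11: 2 when replicate B of 30d -P was left out, 3 for replicate C of 30d +P, 8 for replicate A or C of 30d -P, and 11 for replicate B of 30d +P. No alternative gave an adjusted p under 0.05 at 30d. The 3 miRNAs with an adjusted p under 0.05 at 90d became 5 with RLE, library totals or no filter, 0 with the stricter filter, 8 with DESeq2, 9 with the newer edgeR method, 6 with limma, 0 with edgeR on 6 libraries, and 0 with the replicate block on 12 or 6 libraries. Leaving out 1 library of 90d gave 4 without 90d -P replicate B and 0 without any other. aqc-miR399, 1 of the 3 at 90d, did not pass the stricter filter and was not tested there. Causes were not tested.

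For the co-variation, r on deviations from group means was 0.751 (novel_36 with novel_51), 0.651 (novel_36 with novel_73) and 0.895 (novel_51 with novel_73), and with aqc-miR399 it was -0.33 (novel_36, reversed), 0.0676 (novel_51) and 0.13 (novel_73). Without the 90d +P group, an alternative chosen after seeing the data, these were 0.829, 0.829, 0.927, 0.265, 0.294 and 0.522 in the same order. With a pseudocount of 10, novel_51 with novel_73 gave 0.916. Without the 2 libraries farthest from the median of novel_36 or novel_51, aqc-miR399 gave 0.567 with novel_36 and 0.558 with novel_51. On TMM-scaled levels, 3 miRNAs had all 30d -P libraries above 30d +P, and 11 had all 90d +P libraries below 30d +P. Without 30d +P replicate B, also chosen after seeing the data, the bound of novel_73 in 90d +P against 30d +P was 2.17, against 11.4 with it. Low counts limit novel_73 in 30d +P and aqc-miR399 throughout.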
